A study of Homo sapiens with 6 samples.

Results

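The genes described here encode 10 core components of the human microRNA pathway: *DROSHA*, *DGCR8*, *XPO5*, *DICER1*, *TARBP2*, *AGO1*, *AGO2*, *AGO3*, *TNRC6A* and *TNRC6B*. They were chosen by symbol. Every probe set annotated to exactly 1 of these symbols was followed, which gave 38 of the 45278 probe sets with a single symbol, and 10 of 18244 genes. The samples were SH-SY5Y cells, an established human neuroblastoma line. At 24 hours after seeding, a labelled dose of 15 pM (whether a concentration or an amount was meant is unsure) of an anti-miR against miR-137 (3 arrays, replicates 1 to 3) or of Anti-miR Negative Control #1 (3 arrays, replicates 1 to 3) was delivered with Lipofectamine RNAiMAX, to which both groups were exposed. RNA was taken 72 hours later. The study looked for mRNAs that respond to less miR-137, and the comparison here asks whether the machinery that makes and uses microRNAs was among them.

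MicroRNA genes are transcribed as long primary transcripts that fold into hairpins. In the nucleus, the RNase III enzyme Drosha, with its RNA-binding partner DGCR8, releases the hairpin, and exportin-5 (*XPO5*) carries it to the cytoplasm, where Dicer (*DICER1*), with its cofactor TRBP (*TARBP2*), removes the loop. An Argonaute protein (*AGO1* to *AGO3*) keeps a single strand as its guide, and the GW182 scaffold proteins (*TNRC6A*, *TNRC6B*) connect Argonaute to the deadenylation and decapping enzymes that silence the target mRNA. An anti-miR is a modified oligonucleotide that binds a mature microRNA held by this machinery.

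The sequences of the inhibited microRNA are shown because both RNase III enzymes of the list act on its hairpin. They are RefSeq's (GRCh38.p14, minus strand), with the hairpin at chr1:98046070-98046171, the 5p arm at chr1:98046127-98046149 and the 3p arm at chr1:98046091-98046113. In the hairpin the capitals mark both mature arms, and in the mature strands they mark the seed, bases 2 to 8.
MIR137 hairpin: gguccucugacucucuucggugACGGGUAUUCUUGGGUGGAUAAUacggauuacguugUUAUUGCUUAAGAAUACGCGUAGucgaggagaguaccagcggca
hsa-miR-137-3p: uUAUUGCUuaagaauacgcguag
hsa-miR-137-5p: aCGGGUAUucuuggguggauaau
The hairpin has 102 bases. Drosha cuts at the outer ends of the arms, where the listed hairpin has 22 bases before the 5p arm and 21 after the 3p arm. Dicer cuts at the inner ends, with 13 bases between the arms. The 3p arm is the strand known as miR-137, and its seed belonged to 1 of the 2370 mature human microRNAs in the table used here. No probe set used here carried the symbol of the miR-137 gene or its host, and whether the anti-miR had lowered miR-137 was therefore not checked.

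The values are log2 values per probe set from RMA, which evens out the distributions of the arrays, so a shift shared by all transcripts would not show. Levels are compared between arrays and not between genes, because the level of a probe set also depends on its probes. The labels number the replicates without saying whether they were separate cultures, and p-values therefore measure the spread among these arrays, part of which may be technical. In such bulk RNA, fewer cells of a kind and less RNA per cell cannot be told apart. RNA integrity numbers lay between 9.5 (anti-miR-137 replicate 1) and 9.8. Of 12 listed noradrenergic neuroblastoma markers, 10 had a probe set with a single symbol, and all 10 passed the filter on dim probe sets, with values of 8.15 to 14.5. No marker of the 4 annotated for blood cells passed, but 4 of 5 for fibroblasts and 2 of 3 for Schwann cells did, with values up to 8.98.

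None of the 10 genes passed the test between anti-miR-137 and control. All 10 lay above the filter, which kept probe sets with a mean over 6 arrays of at least 5.69 (the 40th percentile), and each gene was represented by its brightest probe set. In limma 0 of 10 had an adjusted p under 0.05 and 0 of 10 an unadjusted p under 0.05. Over all 12639 genes tested, 0% passed at the adjusted threshold and 2.65% (335 genes) at the unadjusted one, with 1.65% higher and 0.997% lower. The 335 became 198 without anti-miR-137 replicate 2, and 587 when control replicate 1 was left out. The groups overlapped for each of the 10 genes, while they did not overlap for 7.36% of all genes (4.19% higher, 3.16% lower). Log2 fold changes, anti-miR-137 over control, ran from -0.11 to 0.074 among the 10, with 3 above and 7 below 0 and a median of -0.025. Over all genes the median was 0.0033 and 48.0% lay below 0. The outermost bounds of the 95% confidence intervals among the 10 were -0.30 and 0.28, which correspond to 0.814-fold and 1.21-fold. The median half-width of these intervals was 0.17, against 0.19 over all genes.

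**Figure D1:**
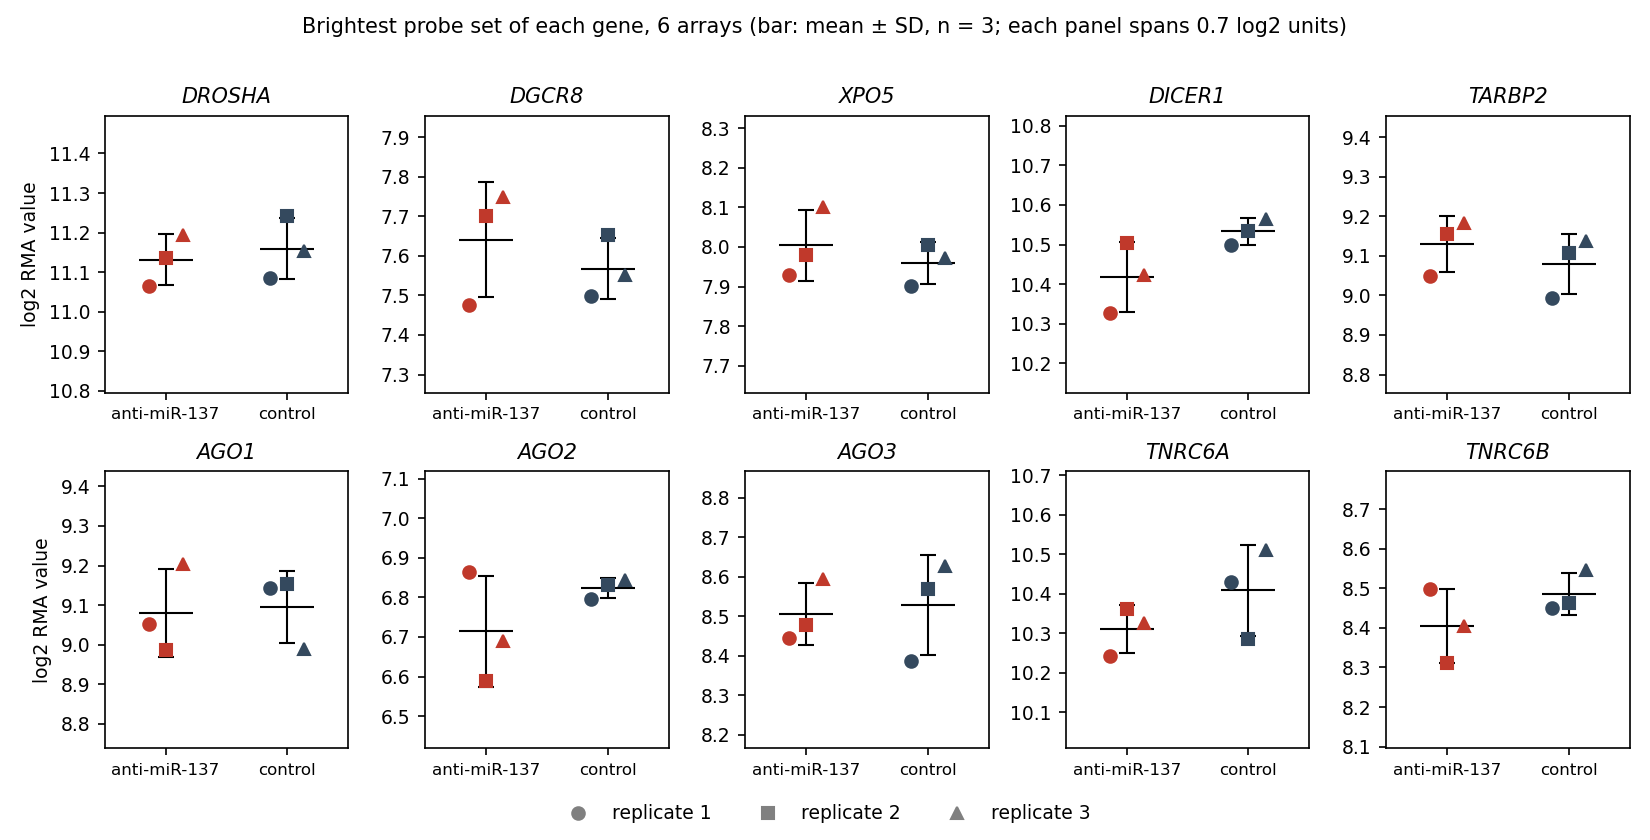
Log2 RMA values of the brightest probe set of each gene in 3 anti-miR-137 arrays (red, left) and 3 control arrays (blue, right); symbols mark the replicate number, bars the mean ± SD, and every panel spans the same range. The groups overlap in all 10 panels.

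The nuclear pair comes first in the pathway. *DROSHA*, the nuclear RNase III, measured 11.07, 11.14 and 11.19 with anti-miR-137, and 11.08, 11.24 and 11.15 with the control. The values interleaved, with replicate 1 lowest in both groups. Its log2 fold change was -0.028 (SE 0.068, 95% confidence interval -0.19 to 0.13, adjusted p = 1.00 in limma). *DGCR8*, whose own mRNA carries a hairpin that Drosha cuts, measured 7.48, 7.70 and 7.75 with anti-miR-137, and 7.50, 7.65 and 7.55 with the control. Replicate 1 was again the lowest in both groups, and the other anti-miR-137 arrays exceeded every control array. Its log2 fold change was 0.074 (SE 0.088, interval -0.13 to 0.28). With the RNA integrity number as a covariate that value was 0.20 (unadjusted p = 0.031 in limma), and no gene passed at the adjusted threshold. That covariate mainly set anti-miR-137 replicate 1 apart, whose number was 9.5, where the other arrays had 9.7 or 9.8. With an array left out the fold change lay between 0.020 (without anti-miR-137 replicate 3) and 0.16 (without anti-miR-137 replicate 1). It was 0.039 without control replicate 1. *DGCR8* had the highest SD among the 10 genes, 0.15 with anti-miR-137 against 0.078 with the control (n = 3 each).

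*XPO5*, the export receptor for the precursor hairpin, measured 7.93, 7.98 and 8.10 with anti-miR-137, and 7.90, 8.01 and 7.97 with the control. Replicate 3 of anti-miR-137 was the one array above all control arrays. This gave a log2 fold change of 0.044 (SE 0.069, interval -0.12 to 0.20).

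The cytoplasmic cleavage enzyme had the smallest p among the 10 genes. *DICER1* measured 10.33, 10.50 and 10.42 with anti-miR-137, and 10.50, 10.54 and 10.57 with the control. The groups touched only where the highest anti-miR-137 value (replicate 2) just exceeded the lowest control value (replicate 1). The means were 10.42 ± 0.088 with anti-miR-137 and 10.53 ± 0.033 with the control (SD, n = 3 each). The log2 fold change was -0.11 (SE 0.066, interval -0.27 to 0.040; unadjusted p = 0.12, adjusted p = 1.00 in limma). Within each replicate number the anti-miR-137 value of this brightest probe set was the lower one, by -0.17, -0.031 and -0.14 log2 units. That order was shared by 13.2% of all genes. It failed on each other *DICER1* probe set. There anti-miR-137 exceeded the control by 0.036 (11757970_s_at) and 0.15 (11755211_a_at) in replicate 1, and by 0.010 (11740190_s_at) in replicate 3. All 4 *DICER1* probe sets had negative log2 fold changes, from -0.11 to -0.047, as did all 4 of *TNRC6A* above the filter. The dim probe sets of *TNRC6A* gave 0.061 and 0.18. Of all probe sets 45.9% were lower, and the probe sets of a gene were read on the same arrays.

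*TARBP2*, the Dicer cofactor, measured 9.05, 9.16 and 9.18 with anti-miR-137, and 8.99, 9.11 and 9.14 with the control. Replicate 1 was the lowest in both groups, and the groups overlapped. The differences within the replicate numbers were 0.056, 0.049 and 0.045 log2 units, each higher with anti-miR-137, an order found in 15.0% of all genes. The fitted log2 fold change was 0.050 (SE 0.069, interval -0.11 to 0.21). The other *TARBP2* probe set, 11761120_at, gave differences of -0.22, 0.33 and 0.33 in replicates 1, 2 and 3.

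The Argonautes hold the guide strand. *AGO1* measured 9.05, 8.99 and 9.20 with anti-miR-137, and 9.14, 9.15 and 8.99 with the control. Its highest and its lowest value both came from anti-miR-137 arrays, and the log2 fold change was -0.015 (SE 0.081, interval -0.20 to 0.17). *AGO2*, the Argonaute able to cut a fully matched target, measured 6.87, 6.59 and 6.69 with anti-miR-137, and 6.80, 6.83 and 6.84 with the control. The SD was 0.14 among anti-miR-137 arrays and 0.024 among control arrays, since anti-miR-137 replicate 1 lay above and replicates 2 and 3 lay below every control array. The log2 fold change of *AGO2* was -0.11 (SE 0.080, interval -0.30 to 0.079; unadjusted p = 0.21, adjusted p = 1.00 in limma). It was -0.19 without anti-miR-137 replicate 1 (unadjusted p = 0.038 in limma) and -0.046 without replicate 2 of that group (unadjusted p = 0.59 in limma). *AGO3* measured 8.44, 8.48 and 8.59 with anti-miR-137, and 8.39, 8.57 and 8.63 with the control. Replicate 1 was lowest and replicate 3 highest in both groups, and the log2 fold change was -0.022 (SE 0.082, interval -0.21 to 0.17).

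*AGO4*, an Argonaute outside the 10 whose gene neighbours *AGO1* and *AGO3*, measured 8.48, 8.24 and 8.25 with anti-miR-137, and 8.56, 8.49 and 8.35 with the control. The groups overlapped, and the log2 fold change was -0.15 (SE 0.091, adjusted p = 1.00 in limma). The other 3 probe sets of *AGO4*, all under the filter, gave 0.0038, -0.12 and 0.11.

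The GW182 scaffolds recruit the silencing enzymes. *TNRC6A* measured 10.24, 10.36 and 10.33 with anti-miR-137, and 10.43, 10.29 and 10.51 with the control. Control replicate 2 lay among the anti-miR-137 values, and the other control arrays lay above all of them. The log2 fold change was -0.099 (SE 0.076, interval -0.28 to 0.080). *TNRC6B* measured 8.50, 8.31 and 8.41 with anti-miR-137, and 8.45, 8.46 and 8.55 with the control. Anti-miR-137 replicate 1 lay within the control range and the other replicates below it. The log2 fold change was -0.081 (SE 0.070, interval -0.24 to 0.082). The paralogue *TNRC6C* measured 9.01, 8.76 and 8.95 with anti-miR-137, and 8.88, 8.89 and 8.90 with the control, a log2 fold change of 0.014.

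**Figure D2:**
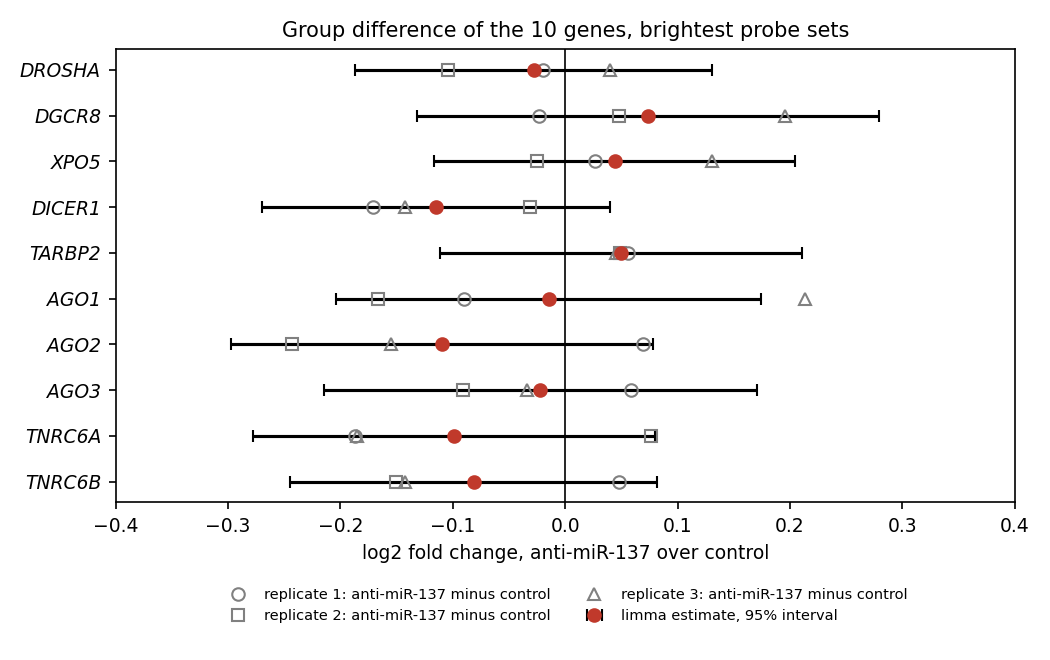
Log2 fold changes (anti-miR-137 over control) of the 10 genes with 95% confidence intervals from limma (red points, black bars), and the difference within each replicate number (open symbols). Each gene is shown by its brightest probe set. Every interval includes 0, and the differences within the replicate numbers lie on 1 side of 0 for *DICER1* and *TARBP2* only.

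Most of the genes were read by several probe sets. Of the 38, 31 passed the filter and 7 were dim. *AGO2* had a single probe set, *TNRC6A* had 6 and *TNRC6B* had 10. In a limma fit over all 45278 probe sets, 0 of the 38 had an adjusted p under 0.05, as did 0% of all. At an unadjusted p under 0.05 there were 2 of 38, both lower, where 3.44% of all probe sets passed (2.41% higher, 1.03% lower). The groups did not overlap for the same 2, against 8.01% of all probe sets (5.11% higher, 2.90% lower). Both were among the 7 dim ones; of all dim probe sets, 9.73% did not overlap and 5.48% had an unadjusted p under 0.05, 1.21% lower. In sign, 14 of the 38 were higher and 24 lower, where 45.9% of all probe sets were lower.

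These dim probe sets were singled out after their values were seen. The dim probe set of *AGO3*, 11760530_at, measured 5.24, 4.96 and 4.63 with anti-miR-137, and 5.29, 5.77 and 5.39 with the control. Every anti-miR-137 array lay below every control array, narrowly for replicate 1. Its log2 fold change was -0.54 (SE 0.17, unadjusted p = 0.013, adjusted p = 1.00 in limma). The other 3 probe sets of *AGO3*, all brighter, gave -0.022, 0.070 and 0.092. The dim probe set of *DROSHA*, 11727109_a_at, measured 5.53, 5.18 and 5.32 with anti-miR-137, and 5.56, 5.66 and 5.65 with the control. Here too replicate 1 of both groups nearly met. The log2 fold change was -0.28 (SE 0.10, unadjusted p = 0.023, adjusted p = 1.00 in limma), while the other 4 probe sets of *DROSHA* lay between -0.053 and 0.023. Which transcripts these dim probe sets read was not tested.

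**Figure D3:**
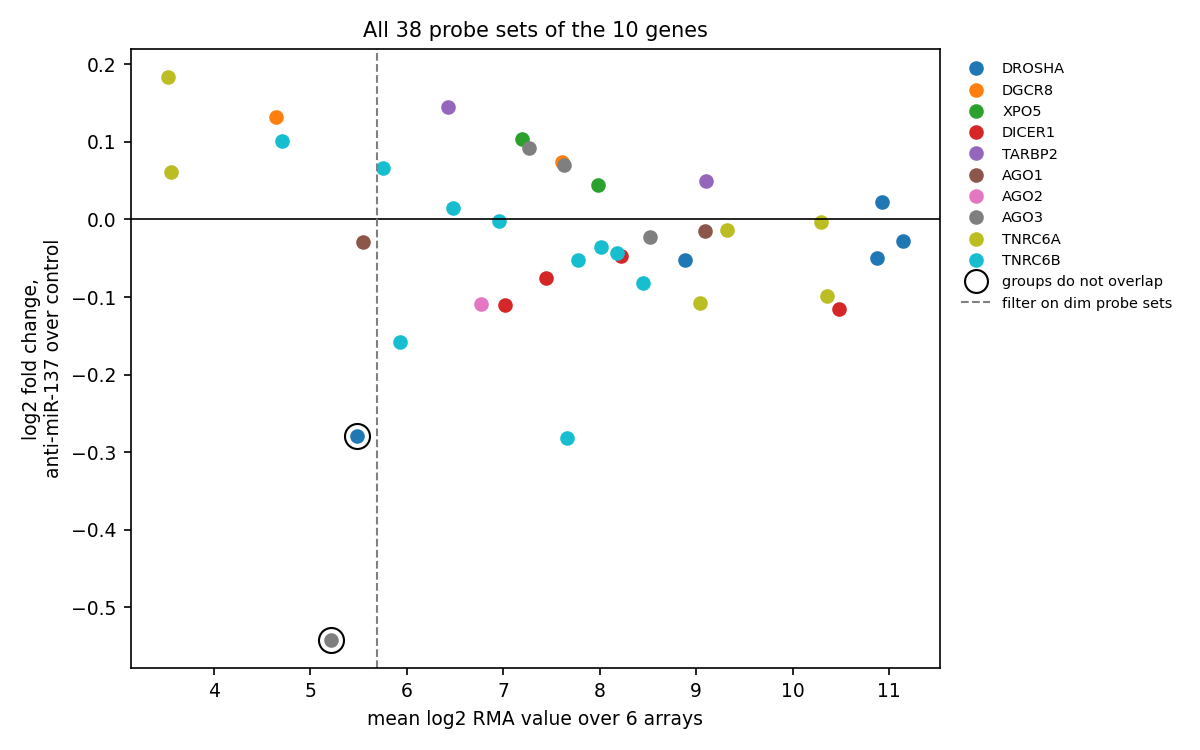
Mean log2 RMA value over 6 arrays against log2 fold change (anti-miR-137 over control) for the 38 probe sets of the 10 genes, with the filter at 5.69 as a dashed line. Both probe sets whose groups do not overlap (circled) belong to *AGO3* and *DROSHA* and lie left of the filter.

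Among the probe sets above the filter, those of *TNRC6B* spanned the widest range, from -0.28 to 0.066 over 9 probe sets. The lowest of them, 11757823_s_at, measured 7.91, 7.05 and 7.58 with anti-miR-137, and 7.84, 7.81 and 7.74 with the control. A *DICER1* probe set, 11755211_a_at, measured 7.59, 7.05 and 7.56 with anti-miR-137, and 7.44, 7.42 and 7.57 with the control. In both, anti-miR-137 replicate 2 was the low array, as it was for the brightest probe sets of *AGO1*, *AGO2* and *TNRC6B*. Both probe sets of *DGCR8* (0.074 and 0.13), of *XPO5* (0.044 and 0.10) and of *TARBP2* (0.050 and 0.14) had positive log2 fold changes, none with an unadjusted p under 0.05. A *TNRC6C* probe set, 11734076_a_at, measured 6.63, 6.69 and 6.91 with anti-miR-137, and 6.45, 6.55 and 6.55 with the control. These groups did not overlap, with a log2 fold change of 0.23 (unadjusted p = 0.038, adjusted p = 1.00 in limma), while the other probe sets of *TNRC6C* gave 0.014 and -0.076.

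The replicate numbers differed in many genes, and no member passed that test. With treatment in the model, limma's F test over the 3 numbers called 320 of 12639 genes at an adjusted p under 0.05, or 2.53%, and 0 of the 10. At an unadjusted p under 0.05 it called 2966 genes (23.5%) and 0 of the 10. The 320 became 0 when any one of anti-miR-137 replicate 1, anti-miR-137 replicate 3, control replicate 1 or control replicate 3 was left out, and 540 without control replicate 2. *AGO3* had the smallest p of the 10, with means over both treatments of 8.42, 8.52 and 8.61 in replicates 1, 2 and 3. Replicate 3 exceeded replicate 1 by 0.20 log2 units (SE 0.066; unadjusted p = 0.070, adjusted p = 0.25, limma's F test). *DGCR8* followed, with means of 7.49, 7.68 and 7.65 (adjusted p = 0.28, limma). *TARBP2* had means of 9.02, 9.13 and 9.16 (adjusted p = 0.32, limma). Replicate 1 had the lowest mean in 6 of the 10 genes, against 35.6% of all genes. Replicate 3 lay above replicate 1 in 8 of the 10 genes, against 47.0% of all genes. The median difference was 0.090 for the 10 and -0.012 for all genes. Among the 70 partner genes described below, 49 had replicate 3 above replicate 1, with a median difference of 0.077. These were 15 of 17 nuclear partners, 11 of 14 partners of Dicer and Argonaute, and 10 of 13 deadenylation genes. In the decapping list it was 7 of 17, and among genes that modify or degrade microRNAs 6 of 9.

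Probe sets of a gene disagreed here too. Replicate 3 exceeded replicate 1 by 0.26 log2 units on the *DROSHA* probe set 11749636_a_at (unadjusted p = 0.043, limma's F test over all probe sets), and by 0.098 on its brightest probe set. For *XPO5* the brightest probe set gave 0.12 and 11729165_a_at gave -0.27 (unadjusted p = 0.045, limma). These were the 2 of 38 probe sets with an unadjusted p under 0.05, where 14.3% of all probe sets had one, and the smallest adjusted p among the 38 was 0.34 in limma. Replicate 3 lay above replicate 1 in 22 of the 38, against 47.1% of all probe sets.

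Genes of G1/S and DNA replication, which mark cycling cells, were set beside the members. This list, like the others, was chosen with earlier results of these data known. All 28 tested had higher values in replicate 3 than in replicate 1, where 47.0% of all genes did. The F test called 13 of the 28, where it called 2.53% of all genes. It called no gene when any array of replicate 1 or 3 was left out. The 28 genes had a median difference of 0.44 log2 units between replicates 3 and 1. Their mean deviation from the 6-array mean was -0.19, -0.017 and 0.29 in anti-miR-137 replicates 1, 2 and 3, and -0.27, -0.050 and 0.24 in control replicates 1, 2 and 3. The 10 members stood at -0.054, -0.029 and 0.038 in the anti-miR-137 replicates, and at -0.031, 0.035 and 0.041 in the control replicates. The part of cycling in the members' differences was not tested.

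**Figure D4:**
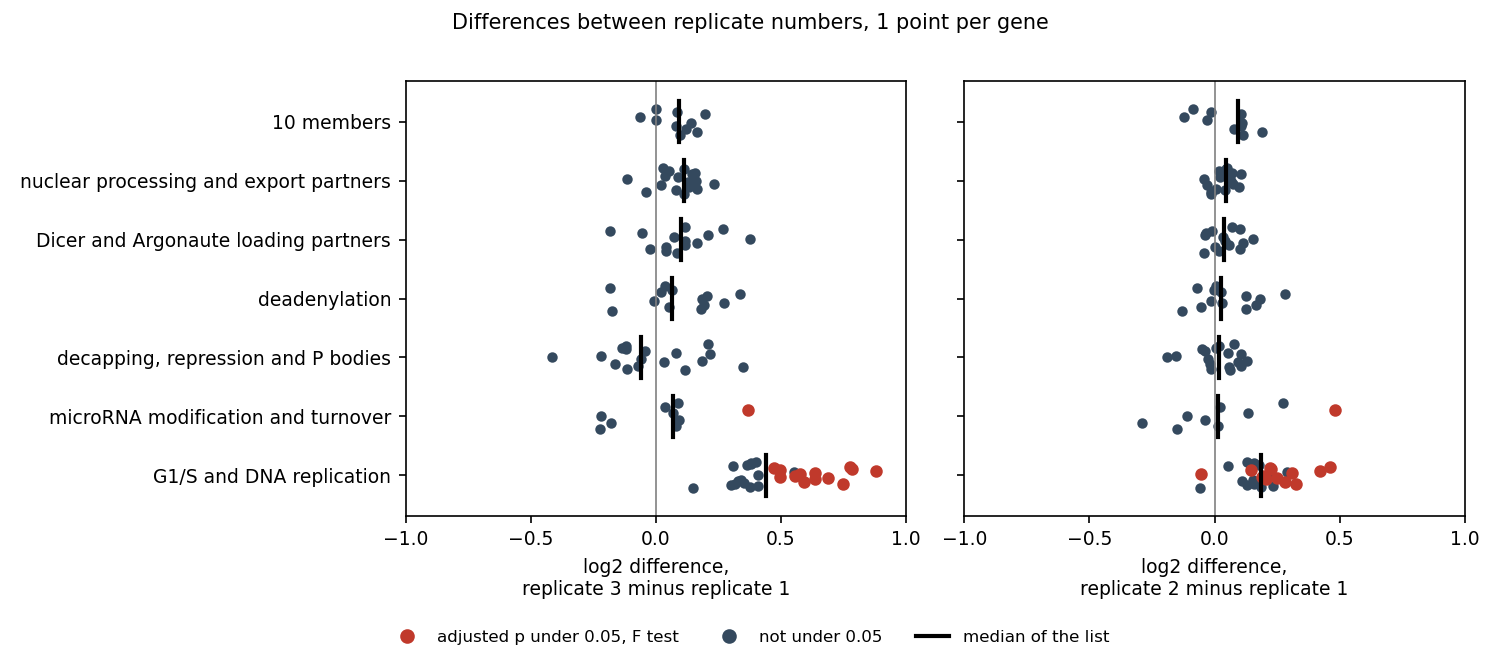
Log2 differences of replicate 3 (left panel) and replicate 2 (right panel) from replicate 1, 1 point per gene, for the 10 members, 5 lists of partner genes and the G1/S genes; red points passed the F test and black bars are medians. The members lie between -0.065 and 0.20 for replicate 3 minus replicate 1, and the 28 G1/S genes between 0.15 and 0.88.

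No partner gene of this machinery passed the test between treatments either. Of 72 listed partners in 5 groups, 70 lay above the filter, and in limma 0 of the 70 had an adjusted p under 0.05 and 2 an unadjusted one, both lower, where 2.65% of all genes had one (0.997% lower). The groups did not overlap for 6 of the 70, or 8.57%, with 4 lower and 2 higher, close to the 7.36% of all genes (3.16% lower, 4.19% higher). Of 17 nuclear processing and export partners, 8 were higher and 9 lower, with a median of -0.0012. The RNA-editing enzyme gene *ADARB1* had -0.14 and the cap-binding subunit gene *NCBP2* had -0.11 as log2 fold changes. *NCBP2* measured 11.30, 11.25 and 11.23 with anti-miR-137, and 11.36, 11.39 and 11.36 with the control, without overlap. Replicate 3 minus replicate 1 was 0.23 for *SRRT*, which links the cap to Drosha, and 0.16 for *RAN*, the GTPase of nuclear export (adjusted p = 0.23 and 0.27, limma's F test).

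Of 14 partners of Dicer and Argonaute, 8 were higher and 6 lower, with a median of 0.0082. *FMR1*, which encodes an RNA-binding protein found with Argonaute, measured 9.85, 9.78 and 9.87 with anti-miR-137, and 9.96, 9.95 and 10.11 with the control. The groups did not overlap, and the log2 fold change was -0.18 (SE 0.068, unadjusted p = 0.035, adjusted p = 1.00 in limma). The import receptor gene *IPO8* had 0.047. The chaperone genes *HSP90AA1* and *HSPA8*, whose products help Argonaute to load, had values 0.37 and 0.27 log2 units above replicate 1 in replicate 3 (adjusted p = 0.061 and 0.13, limma's F test).

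Of 13 deadenylation genes, 5 were higher and 8 lower, with a median of -0.0066. *PAN3*, a subunit of a deadenylase that trims poly(A), had -0.11 and the CCR4-NOT subunit gene *CNOT9* had 0.074. Of 17 genes of decapping, repression and P bodies, 8 were higher and 9 lower, with a median of -0.0054. *LIMD1*, which encodes a LIM-domain scaffold that binds Argonaute, had the smallest p of the 70 partners. It measured 7.14, 7.22 and 7.19 with anti-miR-137, and 7.34, 7.39 and 7.52 with the control. The groups did not overlap, and the log2 fold change was -0.23 (SE 0.068, unadjusted p = 0.010, adjusted p = 1.00 in limma). *WTIP*, of the same family, had 0.13, and its groups did not overlap either, with anti-miR-137 higher. Between replicate numbers, the 2 genes with the smallest p were *AJUBA* (-0.41 for replicate 3 minus replicate 1, adjusted p = 0.058, limma) and *LSM1* (0.22) in the decapping list, and *CNOT6L* (0.27) and *CNOT9* (0.18) in the deadenylation list, and none passed.

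Of 11 genes that modify or degrade microRNAs, 9 lay above the filter, and *LIN28A* and *TRIM71* did not. Of the 9, 3 were higher and 6 lower, with a median of -0.067. The uridylating enzyme genes *TUT7* and *TUT4* had log2 fold changes of 0.15 and -0.15, and the exonuclease gene *XRN2* had -0.096. *LIN28B*, whose product blocks the maturation of let-7, was the 1 partner of 70 that changed with the replicate number, where 2.53% of all genes did. No gene, *LIN28B* included, passed this test without anti-miR-137 replicate 1 or 3, or without control replicate 1 or 3. It measured 9.32, 9.83 and 9.69 in anti-miR-137 replicates 1, 2 and 3, and 9.41, 9.86 and 9.78 in control replicates 1, 2 and 3. Replicate 1 lay below the other numbers in both groups, by 0.48 log2 units against replicate 2 and 0.37 against replicate 3 (adjusted p = 0.040, limma's F test). Between treatments its log2 fold change was -0.069 (SE 0.16). Within this list of 9, *TUT4* had the next smallest p, with -0.29 for replicate 2 minus replicate 1 (adjusted p = 0.18, limma).

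The genes whose profile over the 6 arrays was most like the mean profile of the 10 members were *RBMXL1* (Pearson r = 0.996), *STMN4* (0.994), *PDE7A* (0.993), *HPS3* (0.993) and *UBE2S* (0.989). This is a description over 6 arrays, and 299 of the 12629 genes compared had an r over 0.9. *STMN4*, a stathmin of neurons, measured 7.74, 7.95 and 8.45 with anti-miR-137, and 7.87, 8.45 and 8.56 with the control. Replicate 1 was the lowest in both groups, as in the members' mean.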

How the data were processed

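Total RNA (100 ng) of 6 SH-SY5Y samples was amplified, labelled with biotin and measured on 1-colour oligonucleotide arrays, per the labels' protocols. The authors deposited log2 values made with RMA, and R 3.0.1 is named, per the submitters' processing notes. Values ran from 2.98 to 15.3, with array medians of 6.39 to 6.43. Of 49495 probe sets, 102 controls were left out. A single gene symbol was annotated for 45278 probe sets, and 1333 with several were not used. For 45214 probe sets with a single symbol the gene identifier was found in RefSeq (GRCh38.p14), which changed 0 symbols. Gene positions are not given, because no genome build is named for the probe sets.

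Probe sets under the 40th percentile of mean level (5.69) were left out and the brightest per gene was used, which gave 12639 genes from 27514 probe sets. A second fit used all 45278 without a filter. Both used limma 3.58.1 in R 4.3.3 (lmFit, eBayes, two-sided, Benjamini-Hochberg over the whole table, threshold 0.05), for treatment and, with treatment in the model, for the 3 replicate numbers (F test). The tests were checked on simulated data with known changes. For the test between treatments these data held no differences between replicate numbers, so its behaviour with such differences was not checked. No array pair was identical: the root mean square difference was at least 0.13 and at most 0.24.

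The members and lists were chosen with earlier results of these data known. Named are the members with their probe sets, *AGO4* and *TNRC6C*, the 2 genes of each partner list with the smallest p in either test, and the 5 genes most like the members' mean profile. Alternatives were other filters, averaged probe sets, no cross-hybridising probe sets, further normalizations, a variance trend, array weights, the replicate block, the RNA integrity number as covariate, no group term, a looser threshold and leaving out each array.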

Additional observations from a re-analysis of the deposited data

How the results depend on the processing

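No member passed an adjusted p under 0.05 in limma, between treatments or between replicate numbers, under any alternative run. *DGCR8* was not measured without cross-hybridising probe sets, nor *AGO2* with the 60th percentile filter. The count of 320 genes that differed between replicate numbers was 2 with no filter, 1099 with the filter at the 60th percentile, 1797 with a variance trend, 526 with no group term, 1121 at an adjusted p under 0.1, and between 0 and 540 with an array left out. Over probe sets that count was 0, but 2858 with a variance trend and 4 with no group term (both chosen after seeing the data), and 3 at an adjusted p under 0.1. The cause was not tested. Replicates 1 and 3 showed shared deviations across treatments (r = 0.55 and 0.65) and replicate 2 hardly any (r = 0.073). The labels do not say what arrays of the same number share, and the treatment fit did not pair them. Differences between the numbers therefore stayed in its error. For *DICER1* the unadjusted p in limma was 0.12 in that fit and 0.079 once the replicate block was added. It fell for the other members too, except *AGO1* (0.861 to 0.866), and 0 members came under 0.05. Without cross-hybridising probe sets *DICER1* was read by 11755211_a_at. Its log2 fold change was then -0.076 (unadjusted p = 0.62 in limma, without the block). With the replicate block 0 genes, 0 probe sets and 0 members passed, and 815 genes had an unadjusted p under 0.05 against 335 without it. That count was 1091 with array weights, 642 with no filter and 169 with the 60th percentile filter. Small fold changes turned sign. *AGO1* was 0.0045 with quantile normalization, 0.019 with the RNA integrity number as covariate, and between -0.076 and 0.033 with an array left out. *AGO3* was 0.047 with averaged probe sets, 0.092 without cross-hybridising ones, 0.027 with the integrity number, and between -0.093 and 0.028 with an array left out. *DROSHA* was 0.036 with the integrity number and between -0.066 and 0.012 with an array left out. *XPO5* lay between -0.0051 and 0.082 with an array left out. The signs of the other 6 members, and of the dim *AGO3* and *DROSHA* probe sets, held in each alternative run for them, but their sizes did not all hold. The dim *AGO3* probe set lay between -0.69 and -0.38 with an array left out (unadjusted p = 0.0038 to 0.053 in limma). The dim *DROSHA* probe set lay between -0.37 and -0.20 (unadjusted p = 0.0043 to 0.086 in limma). With an array left out, *TARBP2* lay between 0.0066 (without control replicate 1) and 0.090 (without anti-miR-137 replicate 1), and *TNRC6A* between -0.16 (without control replicate 2) and -0.047 (without control replicate 3), or -0.022 with array weights. *TNRC6B* lay between -0.13 (without anti-miR-137 replicate 1) and -0.035 (without anti-miR-137 replicate 2), and *DICER1* between -0.16 (without anti-miR-137 replicate 2) and -0.070 (without anti-miR-137 replicate 1). With the integrity number as covariate, *DICER1* was -0.060, *TNRC6B* -0.14, *AGO2* -0.20 and *TARBP2* 0.11.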
